A study of Mus musculus with 4 samples.

Results

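Blood-brain barrier endothelial and mural genes were examined in the globus pallidus of mice given cocaine or saline. The 32 genes were listed by name, as markers of brain endothelial cells, pericytes and vascular smooth muscle cells, and not by any measured value. A gene was measured where a probe carried its symbol and no other, which held for 31 of the 32 genes among 19087 genes in all. Of these, 21 are endothelial and 10 are mural, and Ly6a is not analysed here. Their 31 symbols covered 90 spots, and spots of 1 gene were averaged.

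Brain capillaries are lined by endothelial cells that tight junctions seal to each other, so that nutrients have to pass through transporters and many drugs are pumped back into the blood. Pericytes sit on the outside of the capillary wall, where platelet-derived growth factor from the endothelium holds them through the receptor Pdgfrb, and smooth muscle cells wrap arterioles and set their width. In a dissected nucleus such as the globus pallidus these cells are a minority beside neurons and glia.

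The tissue came from male C57BL6 mice, an inbred strain, that had gone through conditioned place preference, a test in which the time spent in a drug-paired compartment is scored. Cocaine was given at 15 mg/kg on days 2, 3 and 4 to mice whose preference score was low, and the comparison mice got saline on those days. No age is stated. Each of 4 arrays paired the RNA of 1 cocaine mouse with that of 1 saline mouse. The cocaine sample carried the red dye Cy5 on arrays 1 and 3, and the green dye Cy3 on arrays 2 and 4. Because every cocaine mouse scored low, an effect of the drug and one of the score cannot be told apart.

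The authors deposited 1 log2 ratio per spot and no intensities, so levels cannot be compared and the tissue's markers cannot be checked for presence. Arrays of the same dye orientation correlated at 0.901 and 0.87 over all spots, and arrays of opposite orientation at -0.833 to -0.961. Every column was therefore read as one treatment over the other with the dye bias left in. The values do not show which treatment is the numerator. The design text names cocaine first, which makes cocaine over saline likely, and every direction given here turns if it was the reverse. As a stand-in for brightness, a spot was called above background where its dye bias, averaged over both orientations, exceeded 0.115 on the log2 scale. All 31 measured genes had at least 1 such spot, against 72.64% of all genes. So had all 10 measured markers of pallidal neurons, but also all 7 of striatal projection neurons and all 9 of astrocyte endfeet. The same held for meningeal fibroblasts (9), microglia (7) and oligodendrocytes (6), while blood and choroid plexus markers had 5 of 6 each. The measure therefore does not check which tissue was dissected. In these bulk samples, fewer cells of a type and less RNA per cell cannot be told apart.

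The question was whether vascular transcripts differed between cocaine and saline mice. None of the 31 genes passed limma's test at an adjusted p under 0.05, and the share over all genes was 0%. At an unadjusted p under 0.05, 0 of the 31 were called, against 1.52% of all genes. The median log2 ratio was 0.01 over the 31 genes, against -0.003 over all genes. Of the 31, 18 were higher and 13 lower, and of all genes 47.99% were higher. The 31 ratios ran from -0.14 for Abcg2 to 0.18 for Cldn5, and the largest corresponds to 1.13-fold. The 95% intervals had a median half-width of 0.17 on the log2 scale, equal to 1.12-fold. They held 0 for all 31 genes, and none reached 1.5-fold. A difference within these intervals was not detectable with 4 arrays. Without intensities, the effect of background on the folds of dim transcripts was not tested.

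**Figure D1:**
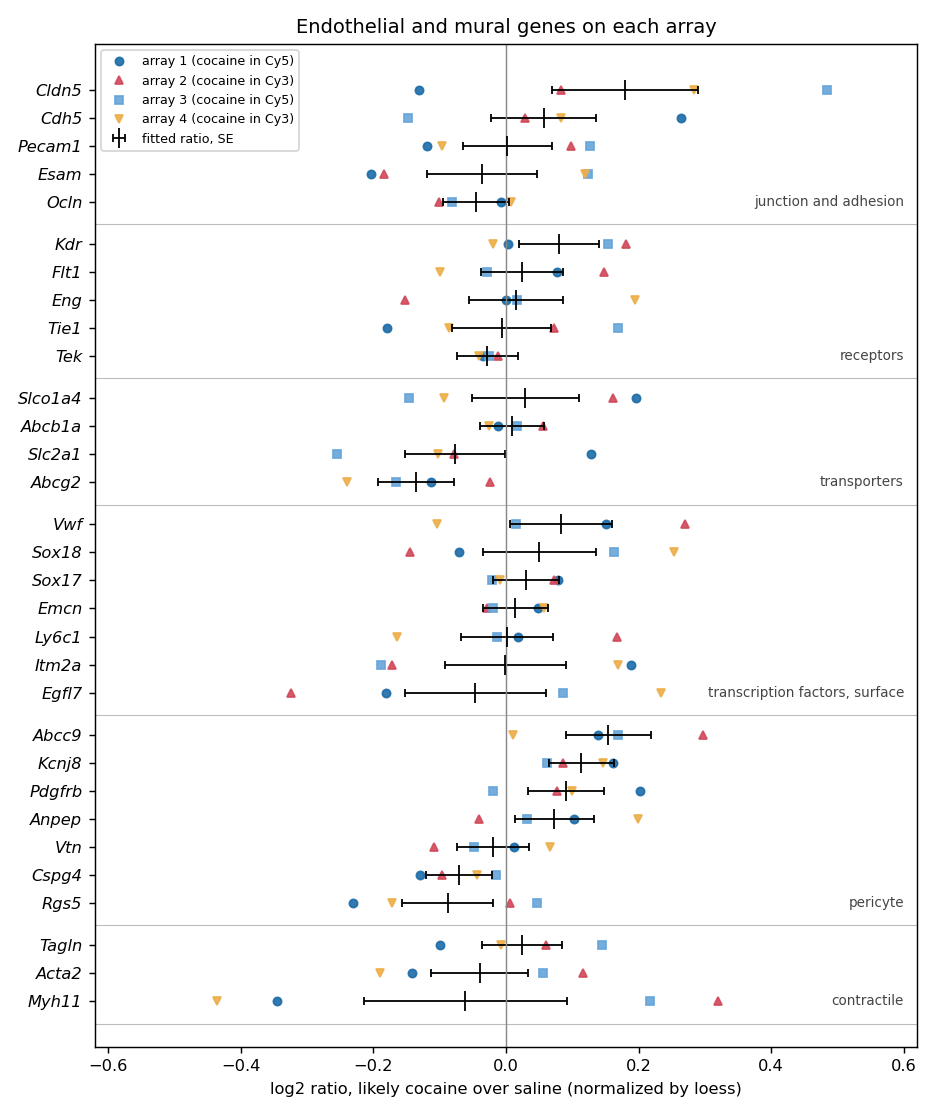
Normalized log2 ratio (horizontal axis, likely cocaine over saline) of the 31 measured genes, grouped by role. Coloured symbols are the 4 arrays, and the black mark with its bar is the fitted ratio and its SE. Abcc9 and Kcnj8 lie above 0 on 4 arrays, Abcg2, Tek and Cspg4 lie below 0 on 4 arrays, and the symbols of the other genes fall on both sides of 0.

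The values of 1 gene on the 4 arrays are not 4 independent readings. The normalization takes out the dye bias, which leaves the mean of arrays 1 and 3 close to the mean of arrays 2 and 4 for every gene, with a median gap of 0.004. What the arrays add beyond the mean is the difference between arrays 1 and 3 and that between arrays 2 and 4, each within 1 dye orientation. By this construction a gene has the same sign on 4 arrays where both differences are small beside its mean. That held for 5 of the 31 genes, or 16.1%, close to the 14.8% of all genes.

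Among the junction and adhesion genes, Cldn5 had the largest ratio of the 31. It encodes claudin-5, the main sealing protein of the brain endothelial tight junction. Its deposited log2 ratios were 0.77, -0.77, 1.68 and -1.01 on arrays 1 to 4, with signs that follow the dye orientation. After normalization they were -0.13, 0.08, 0.48 and 0.28. Array 3 was the highest, and array 1 was the only one below 0. The fitted log2 ratio was 0.18 (SE 0.11, n = 4 arrays, limma adjusted p 0.999), with a 95% interval from -0.10 to 0.46. Without single arrays it ranged from 0.03 to 0.33.

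Pecam1, the endothelial adhesion molecule CD31, had normalized log2 ratios of -0.12, 0.10, 0.13 and -0.10. Arrays 2 and 3 lay above 0 and arrays 1 and 4 below it by about as much, so the fitted ratio was 0.002 (SE 0.07). The fitted log2 ratio was 0.06 (SE 0.08) for Cdh5, the adherens junction protein VE-cadherin. It was -0.04 (SE 0.08) for Esam, an endothelial adhesion molecule, and -0.05 (SE 0.05) for Ocln, the tight junction protein occludin. Of the 5 genes of this group 3 were higher and 2 lower, with a median of 0.002.

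The receptors through which vessels sense growth factors had a median log2 ratio of 0.01 over 5 genes, with 3 higher and 2 lower. Tie1, an orphan receptor of the angiopoietin system, had log2 ratios of -0.18, 0.07, 0.17 and -0.09 and a fitted ratio of -0.01 (SE 0.07). It had the widest range of the group, and its arrays fell on both sides of 0. Tek, the angiopoietin receptor Tie2, had log2 ratios of -0.03, -0.01, -0.03 and -0.04. All lay just below 0, and the fitted ratio was -0.03 (SE 0.05). Eng, the coreceptor endoglin for transforming growth factor beta, had a fitted log2 ratio of 0.01 (SE 0.07). Flt1, the vascular endothelial growth factor receptor VEGFR1, had 0.02 (SE 0.06).

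Kdr, the main signalling receptor for that growth factor, shows what averaging spots does. Its fitted log2 ratio was 0.08 (SE 0.06) over 20 spots. The 10 spots annotated to the RefSeq transcript of Kdr were all above background, and their means over arrays ran from 0.08 to 0.18. The 10 spots annotated to a cDNA clone were all below it, with means from -0.02 to 0.06. From the spots above background alone, Kdr had a log2 ratio of 0.14 (SE 0.10, unadjusted p 0.209 in the limma fit). On array 2 the medians of the 2 sets of 10 spots were 0.35 and 0.01. The bright set had medians of -0.03, 0.35, 0.29 and -0.08 on arrays 1 to 4, so arrays 2 and 3 stood clearly above arrays 1 and 4.

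**Figure D2:**
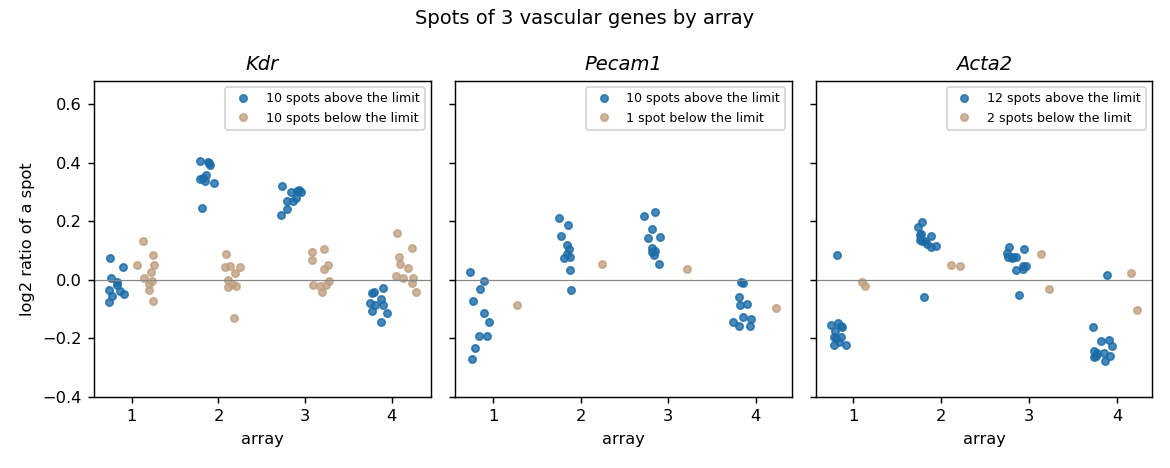
Normalized log2 ratio (vertical axis) of each spot of Kdr, Pecam1 and Acta2 on the 4 arrays (horizontal axis), with spots above the background limit in blue and those below it in tan. The bright spots of Kdr cluster between 0.25 and 0.41 on array 2 and between -0.15 and -0.03 on array 4, while the dim spots scatter around 0 on all 4 arrays.

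The spots also show the spread among spots of 1 gene, in which probe differences and measurement spread cannot be told apart. Over the 10 bright Kdr spots the SD of a spot's mean was 0.03, and it was 0.05 over the 10 bright Pecam1 spots. On array 1 the bright Kdr spots ran from -0.07 to 0.07, and on array 3 from 0.22 to 0.32. These ranges did not overlap, and neither did those of the bright Pecam1 spots, from -0.27 to 0.03 on array 1 and from 0.05 to 0.23 on array 3. For Acta2 they did overlap, with 12 bright spots from -0.22 to 0.08 on array 1 and from -0.05 to 0.11 on array 3. The overlap came from 1 spot, with 0.08, 0.13, 0.05 and 0.02 on arrays 1 to 4. The next highest bright spot on array 1 was at -0.15. Differences between mouse pairs and between hybridizations cannot be told apart with 1 array per pair.

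Of 14 genes with more than 1 spot, 7 had spots whose means differed in sign: Cdh5, Pecam1, Flt1, Kdr, Sox17, Cspg4 and Acta2. In 2 of these, Pecam1 and Acta2, the spots above background disagreed as well. For Cdh5 the bright spot had a mean of 0.16 and the dim spot -0.05, and for Cspg4 the bright spot had -0.16 and the dim spot 0.02.

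The barrier transporters had a median log2 ratio of -0.03, with 2 of 4 higher. Abcg2 encodes the drug efflux pump BCRP of the luminal endothelial membrane. Its log2 ratios were -0.11, -0.02, -0.17 and -0.24, all below 0 and lowest on array 4. The fitted ratio was -0.14 (SE 0.06, adjusted p 0.999), the lowest of the 31 genes. Its 2 spots gave means of -0.21 and -0.06, both above background. The spot with a mean of -0.06 was above 0 on arrays 1 and 2, at 0.06 and 0.03. Without single arrays the fitted ratio of Abcg2 ranged from -0.19 to -0.08.

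Abcb1a encodes P-glycoprotein, the other main efflux pump of the barrier. It had log2 ratios of -0.01, 0.06, 0.02 and -0.03 and a fitted ratio of 0.01 (SE 0.05, 95% interval from -0.11 to 0.13). Slc2a1, the glucose transporter GLUT1, had log2 ratios of 0.13, -0.08, -0.25 and -0.10, with array 1 alone above 0. Its fitted ratio was -0.08 (SE 0.07), and without array 3 it was 0.02. Slco1a4, an organic anion transporter, had a fitted log2 ratio of 0.03 (SE 0.08). Abcb1a, Slco1a4 and the lymphocyte antigen 6 gene Ly6c1 have close paralogs, and hybridization to these was not tested.

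The other endothelial genes had a median log2 ratio of 0.01, with 5 of 7 higher and 0 of 7 of the same sign on 4 arrays. Egfl7, an angiogenic protein that endothelial cells secrete, had log2 ratios of -0.18, -0.32, 0.09 and 0.23. Arrays 1 and 2 lay below 0 and arrays 3 and 4 above it, and the fitted ratio was -0.05 (SE 0.11). Vwf, the clotting factor carrier that endothelial cells store, had a fitted log2 ratio of 0.08 (SE 0.08). The transcription factors Sox17 and Sox18, which act in endothelial and arterial fate, had 0.03 (SE 0.05) and 0.05 (SE 0.08). Emcn, the surface mucin endomucin, had 0.01 (SE 0.05), Ly6c1 had 0.001 (SE 0.07) and Itm2a, a membrane protein, had -0.001 (SE 0.09).

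The pericyte genes had a median log2 ratio of 0.07, with 4 of 7 higher. This was the highest of the 6 role groups, but not without array 1, where it was 0.034 against 0.079 for the contractile genes, nor without array 4, where it was 0.013 against 0.043 for the junction genes. Abcc9 and Kcnj8 encode the SUR2 and Kir6.1 subunits of 1 vascular potassium channel. Abcc9 had log2 ratios of 0.14, 0.30, 0.17 and 0.01. It was above 0 on every array, highest on array 2 and near 0 on array 4. Its fitted ratio was 0.15 (SE 0.06, adjusted p 0.999, unadjusted p 0.0589), or 1.11-fold.

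Kcnj8 had log2 ratios of 0.16, 0.09, 0.06 and 0.15, again above 0 on every array and with a narrow range. Its fitted ratio was 0.11 (SE 0.05, adjusted p 0.999, unadjusted p 0.0664), or 1.08-fold, and its 2 spots gave 0.11 and 0.12. Without single arrays Kcnj8 ranged from 0.09 to 0.14 and Abcc9 from 0.08 to 0.23. These were the 2 of the 31 genes above 0 on 4 arrays, a pattern that 8% of all genes showed, and 3 of the 31 were below 0 on 4 arrays, against 6.76% of all genes. Neither Kcnj8 nor Abcc9 passed the test. In the RefSeq gene table they are next to each other among protein-coding genes, on chromosome 6, and no other such pair was found among the 31.

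The promoters of this neighbouring pair are shown because the genes encode subunits of 1 channel and lie side by side. Values above 0 on 4 arrays were no more frequent among the 31 genes than among all genes. They are the 250 bases before each gene's start, 5′ to 3′ on the gene's strand, from RefSeq on GRCm38.p6. Capitals mark CACCC, a motif that Krüppel-like factors bind, and GGGCGG, the GC box, each searched on both strands. The Kcnj8 window is chr6:142571615-142571864 and the Abcc9 window chr6:142702275-142702524, both on the minus strand.
Kcnj8: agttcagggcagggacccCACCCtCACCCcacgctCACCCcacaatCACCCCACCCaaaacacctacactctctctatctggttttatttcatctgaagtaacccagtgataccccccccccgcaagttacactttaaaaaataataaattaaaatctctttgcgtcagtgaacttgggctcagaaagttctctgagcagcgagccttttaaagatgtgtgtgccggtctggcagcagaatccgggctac
Abcc9: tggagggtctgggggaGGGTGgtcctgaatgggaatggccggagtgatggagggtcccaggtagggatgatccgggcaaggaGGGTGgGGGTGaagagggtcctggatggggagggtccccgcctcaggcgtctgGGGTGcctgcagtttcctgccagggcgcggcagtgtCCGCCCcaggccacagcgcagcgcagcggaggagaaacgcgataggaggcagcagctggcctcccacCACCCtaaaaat
CACCC occurred 5 times in each window, and 52.0% of the 32851 promoter windows of this length in the table hold it at least once. GGGCGG occurred once in the Abcc9 window and 0 times in that of Kcnj8, against 32.7% of the windows. The TATA box motif TATAAA was in neither, against 12.4% of the windows. No matches overlapped. A match describes letters and no binding.

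Cspg4, the proteoglycan NG2 of pericytes and oligodendrocyte precursors, had log2 ratios of -0.13, -0.10, -0.02 and -0.04, all below 0. The fitted ratio was -0.07 (SE 0.05), and -0.16 (SE 0.08, unadjusted p 0.0893 in the limma fit) from its spot above background alone. Rgs5, a regulator of G protein signalling and a pericyte marker, had -0.23, 0.01, 0.05 and -0.17, so arrays 1 and 4 lay below arrays 2 and 3. Its fitted ratio was -0.09 (SE 0.07).

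Pdgfrb had log2 ratios of 0.20, 0.08, -0.02 and 0.10, with array 3 alone below 0, and a fitted ratio of 0.09 (SE 0.06). Anpep, the surface peptidase CD13, had a fitted log2 ratio of 0.07 (SE 0.06). Vtn, the matrix protein vitronectin that brain pericytes make, had -0.02 (SE 0.05). Pericyte markers therefore had values on both sides of 0, and without array 4 their median was 0.01.

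The 3 smooth muscle contractile genes had a median log2 ratio of -0.04, and the arrays differed more than the mean did. Myh11, the smooth muscle myosin heavy chain, had log2 ratios of -0.35, 0.32, 0.22 and -0.44. Its fitted ratio was -0.06 (SE 0.15), with the widest 95% interval of the 31 genes, from -0.45 to 0.33. Acta2, smooth muscle actin, had -0.14, 0.12, 0.06 and -0.19 and a fitted ratio of -0.04 (SE 0.07). Tagln, the actin-binding protein transgelin, had -0.10, 0.06, 0.14 and -0.01 and a fitted ratio of 0.02 (SE 0.06). With spots averaged, array 1 lay below array 3 and array 4 below array 2 in all 3 genes. The 2 spots of Tagln, both above background, ran from -0.29 to 0.09 on array 1 and from -0.02 to 0.30 on array 3. The Tagln spot at 0.09 on array 1 was at -0.02 on array 3, so it did not follow that order.

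For Acta2 the spot medians divided with array 1 below array 3 and array 4 below array 2. Their ranges overlapped through the 1 Acta2 spot given earlier. The 12 bright spots had medians of -0.19, 0.14, 0.08 and -0.25 on arrays 1 to 4. Across all genes 23.0% had array 1 below array 3 and array 4 below array 2, and 10 of the 31 vascular genes did. Pecam1, Kdr and Rgs5 were among these 10, and 0 of the 7 endothelial genes led by Egfl7 were. The division was seen in the data and was not tested. Removing array 1 or array 4 turned the contractile median from -0.04 to 0.08 or 0.04.

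**Figure D3:**
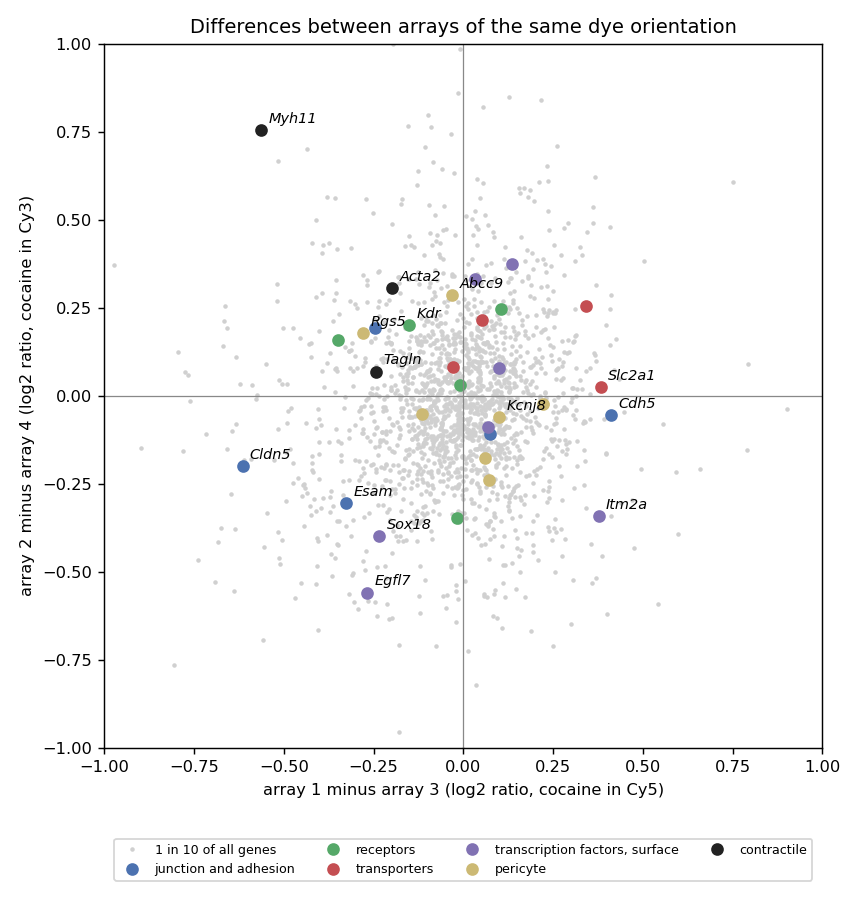
Difference in log2 ratio between array 1 and array 3 (horizontal axis) and between array 2 and array 4 (vertical axis) for the 31 genes, coloured by role, with 1 in 10 of all genes in grey. Of the 1909 grey genes 12 lie outside the axes. Myh11, Acta2 and Tagln lie at the upper left, and Egfl7, Sox18, Cldn5 and Esam in the lower left. Eng and Cspg4, which carry no label, also lie in the lower left.

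The size of these differences can be set beside all genes. The median size of the difference between arrays 1 and 3 was 0.15 for the 31 genes and 0.11 for all genes, and between arrays 2 and 4 it was 0.20 and 0.14. All 31 genes had a spot above background, against 72.64% of all genes, so the sets compared are unlike. Genes matched for this were not compared. Past the 95th percentile of all genes lay Cldn5 at -0.61 and Myh11 at -0.56 for arrays 1 and 3. For arrays 2 and 4 they were Myh11 at 0.76 and Egfl7 at -0.56. Cldn5, Esam, Sox18, Egfl7, Eng and Cspg4 were lower on array 1 than on array 3 and lower on array 2 than on array 4. This differs from the division seen in the contractile genes. These genes were picked by their values, and the share of all genes with this pattern was not computed.

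By array, the median of the 21 endothelial genes was 0.0001, 0.03, -0.01 and -0.02, and that of the 10 mural genes -0.04, 0.07, 0.05 and 0.001. Both groups stayed within 0.07 of 0 on each array.

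Genes that work with these were listed separately by role: 103 measured genes in 7 lists. Of the 103, 56 were higher and 47 lower, which is 54.4% higher against 47.99% of all genes. None passed at an adjusted p under 0.05. At an unadjusted p under 0.05, 2 were higher and 5 lower, which is 6.80% of the list against 1.52% of all genes. A spot above background was present for 94.2% of the 103 genes, against 72.64% of all genes. The lists were drawn up with earlier results of these data known, so the share of 6.80% has no test.

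Mfsd2a, the lipid transporter that keeps endothelial transcytosis low, had the largest difference among junction and plasma membrane genes. Its log2 ratios were -0.20, -0.26, -0.36 and -0.29, below 0 on every array and within a narrow range. The fitted ratio was -0.28 (SE 0.05, unadjusted p 0.00266 and adjusted p 0.999 by limma), or 1.21-fold, from 1 spot, and -0.32 to -0.24 without single arrays. F11r, the junctional adhesion molecule JAM-A, had 0.21 (SE 0.12). This list had 6 of 14 genes higher and a median of -0.01.

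Of 17 vascular ligands 8 were higher (median -0.01). Ndp, the Wnt-pathway ligand norrin, had a log2 ratio of 0.13 (SE 0.05, unadjusted p 0.0398) and was above 0 on 4 arrays, and Tgfb2, a transforming growth factor, had 0.20 (SE 0.09). Of 21 further vascular and Wnt-pathway receptors and their partners 12 were higher (median 0.01). Notch4, an endothelial Notch receptor, had -0.17 (SE 0.06, unadjusted p 0.0320) and was below 0 on 4 arrays. Lrp5, a Wnt coreceptor, had -0.20 (SE 0.09).

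Of 13 other transporters 7 were higher (median 0.01), with Slc3a2, the heavy chain of the large amino acid transporter, at -0.15 (SE 0.05, unadjusted p 0.0295) and Slco2b1 at 0.11 (SE 0.06). Of 13 genes of endothelial activation and vessel tone 9 were higher (median 0.02). Cd34 had 0.14 (SE 0.06) and the adhesion molecule Icam2 0.16 (SE 0.07), both above 0 on 4 arrays. Of the 13 genes, 0 had an unadjusted p under 0.05.

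Of 15 other mural genes 6 were higher (median -0.04). Sncg, gamma-synuclein, which many neurons also express, had log2 ratios of -0.41, -0.40, -0.31 and -0.29. All 4 lay well below 0, and the fitted ratio was -0.35 (SE 0.05, unadjusted p 0.000784, adjusted p 0.999), the lowest of the related genes. Smtn, the contractile protein smoothelin, had -0.14 (SE 0.05, unadjusted p 0.0427). Of 10 basement membrane and matrix genes 8 were higher, with the highest median of the 7 lists at 0.08. Nid1, the laminin and collagen linker nidogen-1, had 0.18 (SE 0.07, unadjusted p 0.0482), and Sparc, a matrix-binding glycoprotein, had -0.12 (SE 0.05).

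**Figure D4:**
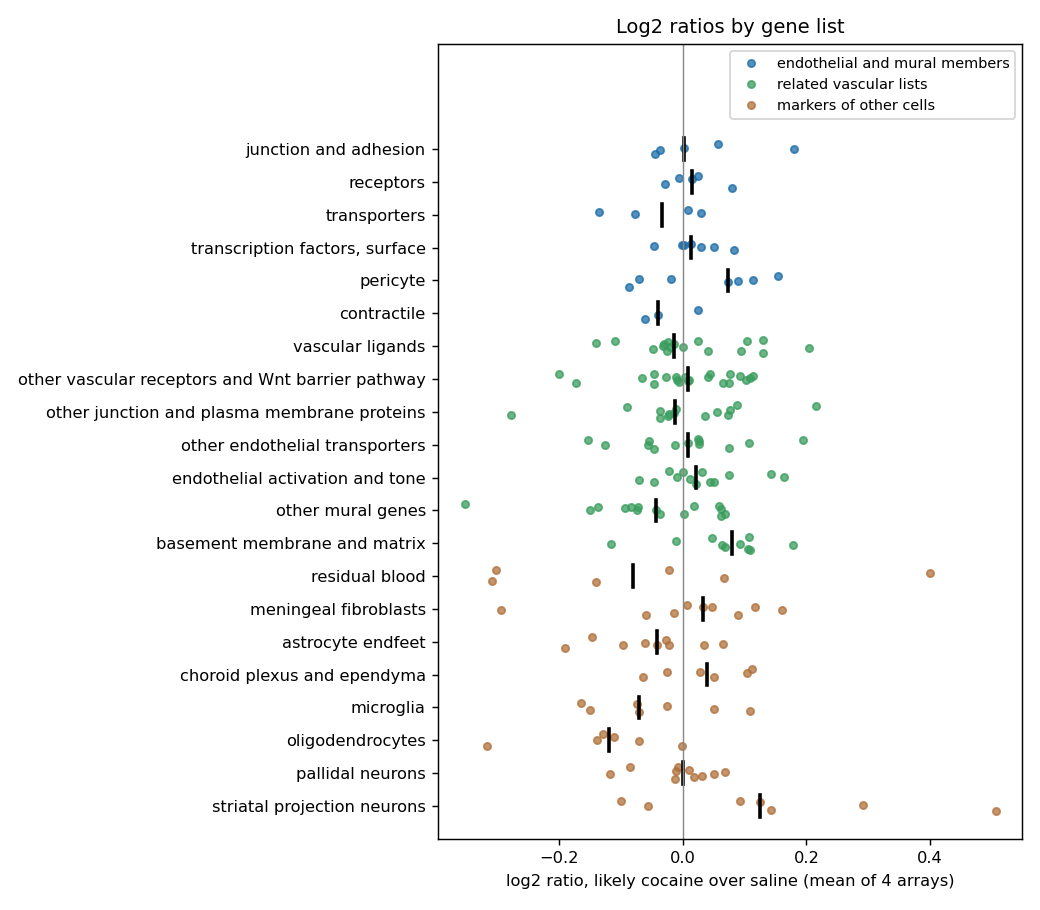
Mean log2 ratio over 4 arrays (horizontal axis) of each gene in the 6 role groups (blue), the 7 related vascular lists (green) and the 8 marker lists of other cells (brown), with the median of each list as a black bar. The medians of the role groups lie between -0.04 and 0.07, and those of the other cell lists between -0.12 for oligodendrocytes and 0.13 for striatal projection neurons.

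Markers of other cells in or beside the vessel wall were set beside these values. None passed at an adjusted p under 0.05, and their part in the vascular values was not tested. At an unadjusted p under 0.05 in the limma fit, 3 of 6 residual blood genes and 1 of 9 meningeal fibroblast genes were called. In each of the other marker lists it was 0, against 1.52% of all genes. These lists too were drawn up with earlier results known, so the shares have no test. The counts of higher genes that follow stand beside 47.99% of all genes and have no test either. Residual blood had 2 of 6 genes higher (median -0.08). The alpha globin genes Hba-a1 and Hba-a2, near-identical copies, had -0.31 (SE 0.11) and -0.30 (SE 0.10). The neutrophil gene S100a9 had 0.40 (SE 0.15), and the other neutrophil gene measured, S100a8, had 0.07. By array the blood median was -0.04, -0.31, -0.17 and 0.10. Astrocyte endfoot genes had 2 of 9 higher (median -0.04), with Agt at -0.19 (SE 0.10) and the water channel Aqp4 at -0.15 (SE 0.08). Meningeal fibroblast genes had 6 of 9 higher (median 0.03), with Ptgds at -0.29 (SE 0.05) and Lum at 0.16 (SE 0.08).

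Choroid plexus and ependymal genes had 4 of 6 higher (median 0.04), with Folr1 at 0.10 (SE 0.05) and Kl at 0.11 (SE 0.05). Microglial genes had 2 of 7 higher (median -0.07), with Tmem119 at -0.17 (SE 0.09) and P2ry12 at 0.11 (SE 0.06). Oligodendrocyte genes had 0 of 6 higher (median -0.12), with Mal at -0.11 (SE 0.05) and Mag at -0.32 (SE 0.15). Pallidal neuron markers had 5 of 10 higher (median 0.001), with Npas1 at -0.12 (SE 0.06) and Pvalb at -0.09 (SE 0.06). Striatal projection neuron markers, from the neighbouring caudate putamen, had 5 of 7 higher, with Rgs9 at 0.13 (SE 0.06) and Pdyn at 0.51 (SE 0.29). Their medians by array were 0.12, 0.26, 0.18 and -0.10.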

How the data were processed

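Per the labels' protocols, 75 ng of total RNA from a PicoPure kit was amplified, labelled with Cy3 or Cy5 and hybridized to arrays of 60-mer probes. Agilent Feature Extraction is the tool given in the submitters' processing notes. The authors deposited log2 ratios for 45220 spots with no intensities or flags. The log base was read from the values: on array 3, 94.4% were log2 of a ratio of whole numbers (relative tolerance 2e-13), against 0.989% read as natural logs. The deposited column medians were 0.33, -0.25, 0.49 and -0.56, so the columns were not centred, and arrays 1, 2 and 4 were taken to be on the same scale.

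Spots at 0 on all arrays (202) were left out. Each array was normalized by loess (span 0.3) against each spot's mean dye bias over the 2 orientations. A spot was above background where that bias lay 3 SDs above the mode, which held for 62.8% of 45018 spots. Symbols came from the platform annotation (33653 probes with 1 symbol, 56 with several, 11511 with none). Of these, 33517 matched the RefSeq table of GRCm38.p6 by identifier. Averaging gave 30452 features, 19087 of them genes, with no coordinates for probes. The test was that of limma 3.58.1, run in R 4.3.3 (treatment and dye terms, eBayes, Benjamini-Hochberg adjustment over all features, 5.21 total degrees of freedom). The fit was tested on simulated data.

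The genes, lists and tests were chosen with earlier results of these data known. Every measured member is named, with array values for those of the same sign on 4 arrays, the widest range per role group and 7 genes fixed by name (Cldn5, Pecam1, Slc2a1, Abcb1a, Pdgfrb, Rgs5 and Acta2). Values by array or spot for Kdr, Tagln, Mfsd2a and Sncg, and the gene Hba-a1, were added after they were seen. Other lists name their 2 genes of smallest p. The alternatives were median centring, no normalization, span 0.5, no dye term, single spots, spots above background, a spread filter and leaving out each array. Arrays were left out after normalization, so the array left out still shaped the values of the others through the averaged dye bias. The 4 arrays limit the precision. Sample titles carry a different code for each channel and the design text calls the hybridizations independent, so each array was taken as 1 replicate.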

Additional observations from a re-analysis of the deposited data

How the results depend on the processing

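No member had an adjusted p under 0.05 in the limma fit under any of the 11 alternatives. The number of features past that threshold, 0 as reported, became 18 under median centring of the arrays. It became 60 when the 10% of features whose arrays varied least were dropped, and stayed 0 under the other 9. The number of members with an unadjusted p under 0.05 became 3 with no dye term (Abcg2, Kcnj8 and Abcc9) and 1 without the least variable features (Cldn5). It ranged from 0 to 2 without single arrays, with Cldn5 without replicate 1, Abcg2 without replicate 2, and Vwf and Abcc9 without replicate 4. The fit with no dye term counts the tied arrays as independent, so its p-values are too small. With median centring and with the spread filter, the members' p-values followed the size of the ratio, whatever a gene's own spread. With the spread filter, Myh11 at -0.06 had p 0.498 and Cdh5 at 0.06 had p 0.534 by limma, although their reported SEs were 0.15 and 0.08. The 18 and 60 features and the call of Cldn5 there do not weigh agreement among a gene's own arrays. The number with the same sign on every array, 5 as reported, became 2 with median centring and 0 as deposited. It ranged from 7 to 8 without single arrays, where only 3 have to match. The shares of all genes by unadjusted p and by sign were not computed under these settings. The member counts given here are therefore not read as results about the members.

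The direction of 11 members held under all 11 alternatives: Cldn5, Ocln, Kdr, Abcg2, Sox17, Pdgfrb, Rgs5, Kcnj8, Abcc9, Cspg4 and Anpep. That of Tek held under the 10 in which it was tested. With median centring Eng (-0.0018), Abcb1a (-0.0033) and Ly6c1 (-0.0089) turned. As deposited Tie1 (0.00068), Eng (-0.00057), Abcb1a (-0.0021) and Ly6c1 (-0.0077) turned. Leaving out single arrays, these ranged through 0: Esam -0.12 to 0.045, Cdh5 -0.046 to 0.16, Pecam1 -0.0598 to 0.063, Flt1 -0.038 to 0.086, Tie1 -0.093 to 0.081, Eng -0.072 to 0.102, Slc2a1 -0.17 to 0.019, Slco1a4 -0.057 to 0.11, Abcb1a -0.012 to 0.029, Sox18 -0.049 to 0.15, Ly6c1 -0.082 to 0.085, Vwf -0.011 to 0.18, Itm2a -0.096 to 0.093, Egfl7 -0.19 to 0.093, Emcn -0.0077 to 0.036, Vtn -0.064 to 0.024, Acta2 -0.12 to 0.037, Tagln -0.036 to 0.085 and Myh11 -0.25 to 0.13. The median of the receptors ranged from -0.036 (without replicate 2) to 0.033 (without replicate 4), and that of the pericyte genes from 0.013 (without replicate 4) to 0.091 (without replicate 3). The junction median ranged from -0.027 to 0.045, that of the transporters from -0.10 to 0.010, that of the other endothelial genes from -0.0077 to 0.036 and that of the contractile genes from -0.12 to 0.079. With span 0.5, single spots and spots above background 31 of 31 kept their direction. The settings on spots can change a ratio only for the 14 genes with more than 1 spot. Without the least variable features 30 members were tested, with Tek left out. Their ratios cannot change there, since dropping other features alters only the p-values. The same holds with no dye term, because the dye orientations were balanced. A direction kept under these settings is therefore no support for it. The cause of the changes in direction and in the medians was not tested. Each ratio is already a difference within a pair of 1 cocaine and 1 saline mouse, so no further pairing was fitted.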
